A study of Mus musculus with 4 samples.

Results

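Adenosine receptors and the enzymes and transporters that set the level of adenosine were read out in the ribosome-bound RNA of CA1 neurons after sleep deprivation. The group holds 10 genes chosen by symbol (Adora1, Adora2a, Adora2b, Adk, Ada, Entpd1, Nt5e, Slc29a1, Slc29a2 and Slc29a4), and all 10 were found among the 28193 genes of the deposited table and passed the filter on low counts. In fosTRAP-seq, neurons that express Fos during a tagging window begin to carry an HA-tagged form of the ribosomal protein Rpl22 (RiboTag), and an HA antibody later pulls down their ribosomes with the RNA on them. All mice were male C57BL/6J, 3 to 5 months old, with the sample labels giving cFos-Cre:Ribotag as the genotype and the study's methods giving a mixture of viral vectors, Fos promoter-driven ERT2-Cre-ERT2 and Cre-dependent HA-Rpl22. NSD and SD mice alike received 4-OHT during 5 h of sleep deprivation on day 0, so the tagged cells of both groups came from a sleep-deprived day. The SD mice then went through 5 h of sleep deprivation once more on day 7, the NSD mice were left to sleep, and tissue was collected at ZT 5. Each library is a pool of the CA1 from 5 mice, with n = 2 libraries in each group and 1 library of each group per labelled batch. The labels name the tissue as dorsal hippocampus.

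Adenosine builds up outside neurons during wakefulness, partly from released ATP, and is a classical signal of sleep pressure. Ectonucleotidases on the cell surface strip phosphates from ATP, ADP and AMP to leave adenosine, equilibrative transporters carry it across the membrane in either direction, and adenosine kinase and adenosine deaminase remove it. In the hippocampus the best known action of adenosine is through the receptor encoded by Adora1, which couples to Gi/o proteins, lowers transmitter release and opens GIRK potassium channels, while the receptors encoded by Adora2a and Adora2b couple to Gs and raise cAMP.

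The 4 libraries held between 153511705 and 195910235 estimated counts. Of 22338 genes tested, 692 (3.10%) were called in edgeR's quasi-likelihood test (fold change above 1.2 in either direction, adjusted p below 0.05), 172 of them higher and 520 lower in SD. Among the 15551 protein-coding genes of the same fit the split ran the other way, with 148 called higher and 84 lower (1.49% in all). With the replicate number (the labelled batch) as a block there were 2559 calls (11.5%). All 8 markers of CA1 pyramidal neurons were present, with a summed level of 6050 and 6392 CPM in NSD and 5743 and 6194 CPM in SD, where CPM stands for TMM-scaled counts relative to the library total. Markers of other cells were present too, none of them listed at 0 in every library. Astrocyte markers summed to between 3211 and 3822 CPM, interneuron markers to between 775 and 883 CPM, microglial markers to between 90.5 and 118 CPM and endothelial markers to between 30.9 and 76.3 CPM. The values below are therefore levels in the precipitated RNA, and in such bulk libraries fewer cells of a type cannot be told apart from less RNA per cell.

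None of the 10 genes was called as changed by the second sleep deprivation, without or with the replicate block or in DESeq2. At an unadjusted p under 0.05, which 19.1% of all genes tested reached, there was 1 of the 10, Adora1. Adora1 was 1.16-fold higher in SD, Nt5e was at 0.726 times its NSD level and Slc29a4 at 0.815 times, and these were the 3 genes whose SD and NSD libraries did not overlap. Among all genes tested, 22.0% had no overlap with SD above and 27.5% had none with SD below, and among protein-coding genes the shares were 26.5% and 20.0%. The 1 gene of 10 above and 2 of 10 below do not exceed either pair of shares. The median log2 fold change of the 10 genes was -0.048, beside -0.016 for all genes tested and 0.018 for the protein-coding ones. What set the genes apart from each other was their level. Per kilobase, Adora1 stood at 51.6 CPM, 31.3 times the next highest of the 10, a ratio that was 17.7 when levels were divided by the longest annotated transcript instead of all exon bases.

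**Figure D1:**
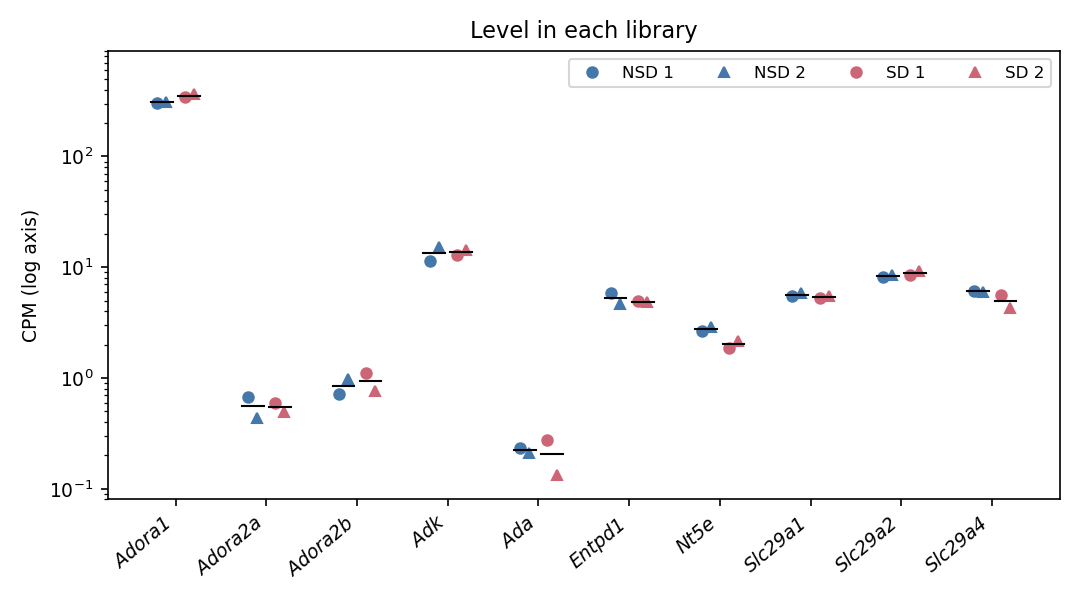
Level of each of the 10 genes in CPM on a log axis, with 1 point per library (blue, NSD; red, SD; circles, batch 1; triangles, batch 2) and black bars for the group means of n = 2 libraries. Adora1 lies between 301 and 363 CPM in every library, whereas Ada lies between 0.132 and 0.277 CPM, and the groups are apart for Adora1, Nt5e and Slc29a4.

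The receptors gave the widest contrast. Levels of different genes were compared as CPM per kilobase of annotated exon. Adora1 had 46.9 and 48.9 CPM per kilobase in NSD and 53.9 and 56.6 in SD, a level percentile of 97.8 among the genes tested. Adora2b had 0.388 and 0.530 CPM per kilobase in NSD and 0.607 and 0.414 in SD. Adora2a had 0.128 and 0.0835 CPM per kilobase in NSD and 0.113 and 0.0935 in SD, a level percentile of 13.2. Within each library the Adora1 level was between 88.9 and 137 times that of Adora2b and between 365 and 606 times that of Adora2a. Per kilobase of the longest transcript these ranges were 96.7 to 149 and 229 to 381. With Adora3, the remaining adenosine receptor, included, Adora1 made up 98.63% and 98.59% of the summed receptor level in NSD and 98.51% and 98.98% in SD. The SD and NSD shares overlapped, and all 4 libraries were dominated by the same receptor.

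The promoters of the most abundant receptor gene and of Adora2b are shown because these receptors differ so widely in level, although the counts hold no measurement of the promoters themselves. Each is the 250 bases before the start in RefSeq, printed on the gene's own strand with GC boxes (GGGCGG or its complement CCGCCC, the motif of Sp-family factors) in capitals. The RefSeq table is of build GRCm38.p6, and the coordinates come from the single exact match in GRCm39, the build of the deposited table. The Adora1 window shown is chr1:134163196-134163445 on the minus strand, and the Adora2b window is chr11:62139560-62139809 on the plus strand.
Adora1: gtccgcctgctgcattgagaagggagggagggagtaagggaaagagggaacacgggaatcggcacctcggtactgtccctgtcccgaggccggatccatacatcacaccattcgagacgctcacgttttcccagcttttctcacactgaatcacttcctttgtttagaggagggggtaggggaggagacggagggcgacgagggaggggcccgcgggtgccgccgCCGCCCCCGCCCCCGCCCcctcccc
Adora2b: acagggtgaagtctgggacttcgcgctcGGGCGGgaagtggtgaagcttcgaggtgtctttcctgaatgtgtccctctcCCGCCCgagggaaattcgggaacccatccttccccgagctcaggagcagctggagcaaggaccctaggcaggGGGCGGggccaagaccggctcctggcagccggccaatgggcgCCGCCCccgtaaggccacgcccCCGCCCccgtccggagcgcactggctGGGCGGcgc
The Adora1 window shown, the first of 2 listed, had 64.4% G and C, 19 CpG pairs and 3 GC boxes, while that of its other start had 65.2%, 18 CpG pairs and 0 GC boxes. The Adora2b window had 69.6%, 22 CpG pairs and 6 GC boxes. Over all 32851 windows of the table the medians were 52.4% and 6 CpG pairs, and 32.7% of windows held a GC box. A window was listed for 9 of the 10 genes, 19 windows in all with alternative starts, and 11 of the 19 held a GC box. None of the 19 held the full CRE (TGACGTCA, found in 1.55% of all windows) or an AP-1 site (TGACTCA or its complement TGAGTCA, found in 4.46%), searched on both strands.

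Adora1 (ENSMUSG00000042429, chr1:134126961-134163169, minus strand, GRCm39) is the gene of an inhibitory adenosine receptor. It had 301 and 313 CPM in NSD and 346 and 363 CPM in SD. Both SD libraries were above both NSD libraries, and the gap between the groups was wider than the gap within either. The means were 307 ± 9.17 CPM in NSD and 355 ± 12.1 CPM in SD (s.d., n = 2 libraries each), a log2 fold change of 0.21 ± 0.079 (s.e.) with a 95% interval of 0.026 to 0.39. The adjusted p was 0.198 in edgeR and 0.0542 with the replicate block. DESeq2 gave an adjusted p of 0.0190, which 10.2% of the genes it adjusted also reached at 0.05, but the fold remained under the 1.2 needed for a call. The difference was alike in both batches, 0.20 in batch 1 and 0.21 in batch 2 on the log2 scale. Its exons share 3361 bases with Mybph on the other strand, which had only 0.111 to 0.282 CPM.

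Adora2b (ENSMUSG00000018500, chr11:62139810-62157279, plus strand), the gene of a Gs-coupled receptor of low affinity, had 0.718 and 0.980 CPM in NSD and 1.12 and 0.767 CPM in SD. The groups overlapped, and the difference turned from 0.64 in batch 1 to -0.35 in batch 2 on the log2 scale. These levels rest on 119 to 203 counts per library. The fitted log2 fold change was 0.15 with a 95% interval of -0.63 to 0.94.

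Adora2a (ENSMUSG00000020178, chr10:75152711-75170618, plus strand), the Gs-coupled receptor best known from striatal neurons, had 0.676 and 0.439 CPM in NSD and 0.592 and 0.492 CPM in SD. The NSD libraries spanned both SD libraries. The counts were 69 to 112 per library, and the 95% interval of the log2 fold change, -0.94 to 0.86, takes in changes of nearly 1 log2 unit either way. The 5 markers of striatal neurons were low as well, with a summed level between 23.7 and 26.6 CPM.

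Of the enzymes that form adenosine outside the cell, Entpd1 (ENSMUSG00000048120, chr19:40600810-40730046, plus strand) encodes CD39, which takes ATP and ADP down to AMP. It had 5.83 and 4.67 CPM in NSD and 4.97 and 4.82 CPM in SD, and the groups overlapped. The log2 fold change was -0.10 with a 95% interval of -0.47 to 0.26.

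Nt5e (ENSMUSG00000032420, chr9:88209250-88254145, plus strand) encodes CD73, which makes adenosine from AMP. It had 2.68 and 2.86 CPM in NSD and 1.85 and 2.17 CPM in SD. Both SD libraries were below both NSD libraries, and the Poisson intervals of the counts, which cover counting error only, did not overlap either (lower bound 2.43 CPM in NSD, upper bound 2.39 CPM in SD). The means were 2.77 ± 0.127 CPM in NSD and 2.01 ± 0.226 CPM in SD (s.d., n = 2 libraries each). The log2 fold change of -0.46 ± 0.21 (s.e.) was the largest in size among the 10 genes, its 95% interval ran from -0.93 to 0.0071, and the adjusted p was 0.269 in edgeR and 0.120 with the replicate block. Batch 1 gave -0.53 and batch 2 gave -0.40 on the log2 scale.

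Several lists of cell type markers had values to one side of 0 in the same libraries. All 10 endothelial markers had a negative log2 fold change (median -0.76), of which 0 were called, 7 had an unadjusted p under 0.05, 6 were called with the replicate block and 4 by DESeq2. Over all genes these shares were 3.10%, 19.1%, 11.5% and, by DESeq2 with the fold threshold, 9.14%. Their summed level was 55.2 and 76.3 CPM in NSD and 46.0 and 30.9 CPM in SD, and all 5 pericyte markers also had negative values (median -0.37). Of the CA1 pyramidal markers, 6 of 8 had negative values (median -0.32), with 0 called, 5 called lower with the block and 5 by DESeq2. Of the 10 astrocyte markers, 8 had positive values (median 0.071). All 5 choroid plexus markers tested had negative values (median -0.71), with 1 called lower in edgeR, the only call among the 12 marker lists, and a summed level of 60.5 and 132 CPM in NSD and 63.4 and 40 CPM in SD. Of the 6 fibroblast markers, 5 had positive values (median 0.32), with 0 called, 3 at an unadjusted p under 0.05, 2 called higher with the block and 1 by DESeq2, and their summed level was 30.8 and 28.1 CPM in NSD and 38.3 and 35.3 CPM in SD. Of the 10 microglial markers, 8 had negative values (median -0.058), with 0 called in edgeR, 0 at an unadjusted p under 0.05 and 0 by DESeq2. Of the 5 markers of CA2 pyramidal neurons, 3 had negative values (median -0.11), with 0 called, 3 at an unadjusted p under 0.05, 2 called lower with the block and 0 by DESeq2. All 5 striatal markers had positive values (median 0.11), and the medians of the remaining 3 lists lay between -0.036 and -0.021. With the block 1 astrocyte marker was called higher, 1 interneuron marker lower, and 1 marker of the oligodendrocyte lineage in each direction, and DESeq2 called 1, 0 and 2 markers of these lists. The part of these differences in the Nt5e, Entpd1 and Slc29a4 values was not tested.

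**Figure D2:**
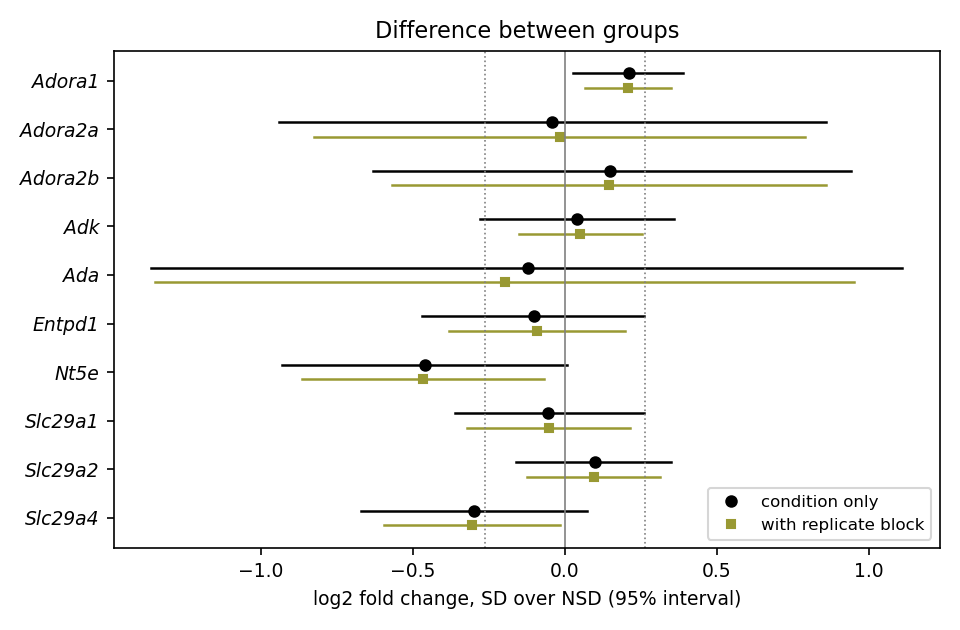
Log2 fold change of SD over NSD for each gene with its 95% interval, from the fit with condition only (black circles) and with the replicate block (olive squares), with dotted lines at the 1.2-fold threshold. Intervals are narrow for Adora1 (0.026 to 0.39) and wide for Ada (-1.36 to 1.11), and none of the 10 genes was called in either fit.

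The enzymes of adenosine removal were unequal in level. Adk (ENSMUSG00000039197, chr14:21102642-21498637, plus strand), adenosine kinase, which returns adenosine to AMP and in the adult brain is best known from astrocytes, had 11.3 and 15.2 CPM in NSD and 13 and 14.2 CPM in SD. The NSD libraries enclosed the SD libraries. The log2 fold change was 0.039 with a 95% interval of -0.28 to 0.36, that is a fold between 0.823 and 1.28.

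Ada (ENSMUSG00000017697, chr2:163568504-163592159, minus strand), adenosine deaminase, which turns adenosine into inosine, had 0.235 and 0.210 CPM in NSD and 0.277 and 0.132 CPM in SD. The SD libraries were the highest and the lowest of the 4. With 25 to 50 counts per library, the 95% interval of the log2 fold change was -1.36 to 1.11, that is from 0.390 to 2.15 times the NSD level. The data do not settle whether a change within that interval took place. Its exons share 1069 bases with Pkig on the opposite strand, which had 13.4 to 15.1 CPM. Since the counting is not stated to have used strand, how many of the Ada counts came from Pkig was not tested. Per kilobase of exon, Adk was at 21.8 to 50.0 times the level of Ada in every library, and per kilobase of the longest transcript at 55.1 to 126 times.

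The 3 transporter genes lay between 0.443 and 1.79 CPM per kilobase in every library. Slc29a1 (ENSMUSG00000023942, chr17:45896126-45910532, minus strand), the equilibrative transporter ENT1, had 5.46 and 5.82 CPM in NSD and 5.32 and 5.55 CPM in SD. Slc29a2 (ENSMUSG00000024891, chr19:5073888-5082000, plus strand), the related transporter ENT2, had 8.14 and 8.51 CPM in NSD and 8.46 and 9.34 CPM in SD. Both genes overlapped between groups, with log2 fold changes of -0.054 (95% interval -0.36 to 0.26) and 0.10 (-0.16 to 0.35). Per kilobase of exon, Slc29a2 was at 2.16 to 2.49 times the level of Slc29a1, and per kilobase of the longest transcript at 1.45 to 1.67 times.

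Slc29a4 (ENSMUSG00000050822, chr5:142678267-142708245, plus strand) encodes the plasma membrane monoamine transporter, which can also carry adenosine. It had 6.08 and 6.03 CPM in NSD and 5.57 and 4.30 CPM in SD. Both SD libraries were below both NSD libraries, but the SD libraries differed more from each other (0.37 on the log2 scale) than SD replicate 1 did from NSD replicate 1 (-0.13). The log2 fold change was -0.30 ± 0.16 (s.e.) with a 95% interval of -0.67 to 0.074 and an adjusted p of 0.380 in edgeR. Batch 2 gave -0.49 on the log2 scale. The fitted value was -0.10 without SD replicate 2 and -0.49 without SD replicate 1. Slc29a4 shares 442 exon bases with Tnrc18 on the opposite strand, which had 356 to 409 CPM and a log2 fold change of 0.11, and the part of Tnrc18 reads in the Slc29a4 counts was not tested.

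**Figure D3:**
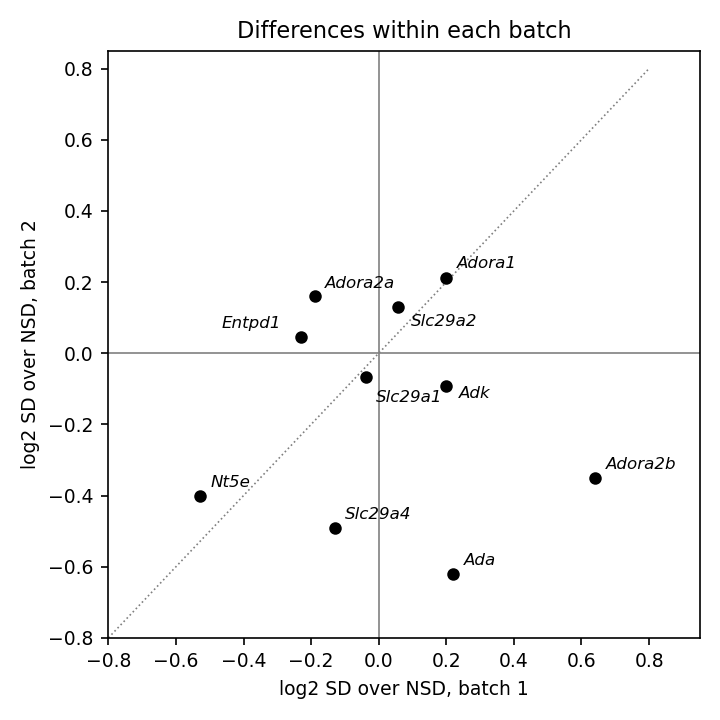
Log2 difference between the SD and the NSD library of batch 1 (horizontal axis) and of batch 2 (vertical axis), 1 point per gene, with the dotted line marking equal values. Adora1 (0.20 and 0.21), Nt5e (-0.53 and -0.40) and Slc29a4 (-0.13 and -0.49) have the same sign in both batches. So do Slc29a1 (-0.039 and -0.067) and Slc29a2 (0.057 and 0.13). Adora2b (0.64 and -0.35), Ada (0.22 and -0.62), Adora2a, Adk and Entpd1 do not.

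Ordered by mean level per kilobase over the 4 libraries, Adora1 (51.6 CPM per kilobase) was followed by Slc29a2 (1.65), Adk (1.18), Slc29a1 (0.717), Entpd1 (0.712), Slc29a4 (0.566), Adora2b (0.485), Nt5e (0.272), Adora2a (0.104) and Ada (0.0403). The ranges over the 4 libraries overlapped for Slc29a1 and Entpd1 and for Slc29a4 and Adora2b, and did not overlap for the other neighbours in this order. Per kilobase of the longest annotated transcript, a length chosen after the data had been seen, Adk (3.17) moved above Slc29a2 (2.19) and Nt5e (0.575) above Adora2b (0.485), with Adora1 still first at 56.1 and Adora2a (0.181) and Ada (0.0429) still last.

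Beyond the 10 genes, 74 related genes were listed in 5 groups, of which 68 were in the table and 61 were tested. A single gene of the 61, Ak4, was called, and it was higher in SD. With the replicate block 3 were called, all higher. These are 1.64% and 4.92% of the 61 genes, beside 3.10% and 11.5% over all genes tested and 1.49% and 7.07% over the protein-coding ones. An unadjusted p under 0.05 was reached by 16.4% of the 61, beside 19.1% of all genes and 14.6% of the protein-coding ones. The median log2 fold change of the 61 genes was -0.0013, with 30 above 0 and 31 below.

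Ak4, an adenylate kinase of the mitochondrial matrix that passes phosphate between nucleotides, had 31.6 and 28.1 CPM in NSD and 41.3 and 39.4 CPM in SD. The SD libraries were well above the NSD libraries. It rose 1.35-fold, a log2 fold change of 0.43 ± 0.081 (s.e.), with an adjusted p of 0.0397 in edgeR and 0.000701 with the replicate block. The call was lost with no count filter (adjusted p 0.0524), with filterByExpr (0.0628) and among protein-coding genes only (0.0706), with a log2 fold change of 0.41 to 0.46 in these fits. Without NSD replicate 2 the adjusted p was 0.0513.

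Ahcyl2, which resembles the enzyme that releases adenosine from S-adenosylhomocysteine but is known as a regulatory protein, had 152 and 155 CPM in NSD and 195 and 188 CPM in SD. Its libraries did not overlap either, and the log2 fold change was 0.32 ± 0.071 (s.e.). The adjusted p of 0.0516 just missed the threshold in edgeR, whereas it was called with the replicate block (adjusted p 0.00425) and by DESeq2 (8.04e-05).

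Entpd3, an ectonucleotidase of the same family as Entpd1, had 6.24 and 7.12 CPM in NSD and 7.84 and 9.22 CPM in SD. The lowest SD library was only a little above the highest NSD library. The log2 fold change was 0.35 ± 0.14 (s.e.), with an adjusted p of 0.199 without and 0.0446 with the replicate block, so it was called only with the block among these fits.

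By group, the other enzymes of adenosine formation had 0 of 11 tested genes called in edgeR (2 at an unadjusted p under 0.05, or 18.2% beside 19.1% of all genes, and 0 called by DESeq2), with a median log2 fold change of -0.16 and 7 of the 11 below 0. The most abundant of them per kilobase was Nt5c, a cytosolic nucleotidase, which had 8.45 and 9.88 CPM per kilobase in NSD and 7.43 and 7.42 in SD. The group of purine salvage and catabolism held Ak4 and Ahcyl2 and had 1 of 19 called in edgeR (5.26%, beside 3.10% of all genes). At an unadjusted p under 0.05 there were 3 (15.8%, beside 19.1%), and with the replicate block 2 were called (10.5%, beside 11.5%). DESeq2 called 2 of the 19, beside 9.14% of all genes it adjusted. The median was 0.036, with 11 of the 19 above 0. The most abundant member of this group was Ahcyl1, a relative of Ahcyl2, with 22.1 and 23.3 CPM per kilobase in NSD and 22.9 and 23.7 in SD.

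Of 4 other nucleoside transporters only 2 passed the filter, none was called or had an unadjusted p under 0.05 in edgeR, and none was called by DESeq2. Slc29a3, the ENT3 transporter of lysosomes, led them with 2.16 and 1.93 CPM per kilobase in NSD and 1.97 and 1.87 in SD. The genes of ATP release and P2 receptors had 0 of 15 called in edgeR, 0 by DESeq2 and a median of -0.15. An unadjusted p under 0.05 in edgeR was reached by 2 of the 15 (13.3%, beside 19.1% of all genes). Panx2, a pannexin, was the most abundant gene of this group, with 30.1 and 24.7 CPM per kilobase in NSD and 31.3 and 30.8 in SD.

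The genes through which the receptors act (Adora3, G protein alpha subunits and GIRK channel subunits) had 0 of 14 called in edgeR. DESeq2 called 0, and 3 (21.4%, beside 19.1% of all genes) had an unadjusted p under 0.05 in edgeR. The median of the 14 log2 fold changes was 0.057, with 9 of the 14 above 0. Gnas, which encodes the alpha subunit of Gs, had 55.7 and 63.5 CPM per kilobase in NSD and 60.8 and 64.9 in SD. Adora3, a Gi-coupled receptor, had 0.495 and 0.318 CPM in NSD and 0.354 and 0.291 CPM in SD. The Adora3 groups overlapped, the log2 fold change was -0.33 with a 95% interval of -1.35 to 0.68, and its exons share bases with other genes on the same strand, so these low counts are uncertain.

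**Figure D4:**
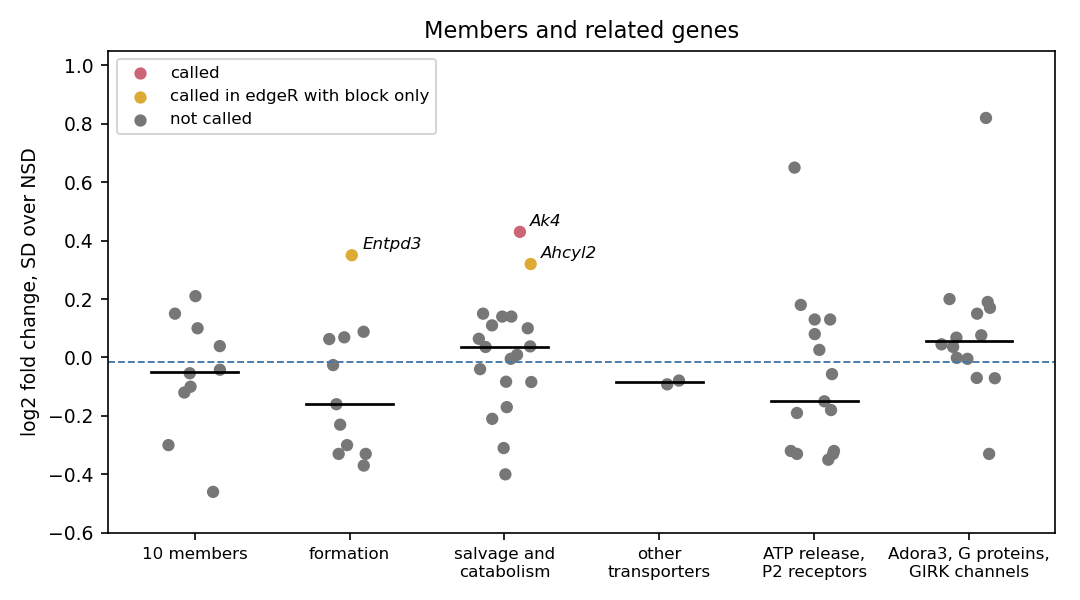
Log2 fold change of SD over NSD, 1 point per tested gene, for the 10 genes and for the 5 groups of related genes, with black bars at the group medians and a dashed line at the median of all genes tested (-0.016). Ak4 (red) was called, Ahcyl2 and Entpd3 (yellow) were called in edgeR with the replicate block but not without it, and the grey points were not called.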

How the data were processed

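RNA bound to HA-tagged ribosomes was sequenced from 4 libraries, 2 NSD and 2 SD, made with a stranded total RNA kit. The authors aligned the reads with STAR to mm39 and quantified genes in Partek Flow by expectation maximization, using the Ensembl 110 annotation. The deposited values are expected counts without normalization, and 55.6% of genes have a value that is not whole. Whether strand was used in counting is not given in the sources used here.

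Counts were rounded, genes above 5 counts in each of the 4 libraries were tested, and edgeR 4.0.16 in R 4.3.3 (TMM, quasi-likelihood, condition as the only term) gave Benjamini-Hochberg adjusted p-values over all genes tested. CPM values use the TMM factors, and single-library log2 values a prior count of 2. Exon lengths and overlaps came from GENCODE M39. Intervals are at 95%.

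The labels give each library a batch, which equals its replicate number, with 1 NSD and 1 SD library in each, so the numbers pair the libraries. The deviations of same-numbered libraries had a correlation of 0.178. Alternatives were this replicate block, DESeq2 1.42.0, its size factors in edgeR, other filters, protein-coding genes only, no fold change threshold and each library left out. The libraries are pools, so p-values rest on the spread between 2 pools per group and not between mice. In edgeR the spread of each gene was also drawn towards that of other genes, with 6.38 prior degrees of freedom.

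The genes, lists and markers were chosen with earlier results of these data known. Named are the 10 genes, Adora3 and, of each related list, the called genes with the smallest p, at most 4, and the gene of highest level per kilobase.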

Additional observations from a re-analysis of the deposited data

How the results depend on the processing

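None of the 10 genes was called in any edgeR fit run, with or without the fold change threshold in the reported one, or in DESeq2 with that threshold. With the replicate block 3 of them had an unadjusted p under 0.05, as did 26.5% of all genes in that fit. In DESeq2 with no fold change threshold, an alternative added after the data had been seen, 1 of the 10 was called, Adora1, with 2186 genes in all and 2 of the related genes. The number of calls over all genes depended strongly on the settings, being 692 as reported, 2559 with the replicate block, 1963 with DESeq2, 130 with no count filter, 1 with filterByExpr and 90 among protein-coding genes only. Leaving out a library gave 231 to 2244 calls, with 231 without NSD replicate 1, 2244 without SD replicate 1 and 1112 without SD replicate 2. Such fits leave 1 library in a group, which is assumed to vary like the others. Of the related genes, 1 was called as reported, 3 with the replicate block, 2 with DESeq2 size factors in edgeR, 2 with DESeq2, and 0 with no count filter, with filterByExpr and among protein-coding genes only (11, 10 and 8 at an unadjusted p under 0.05). Leaving out a library gave 1 to 2, with 2 without SD replicate 1 and 2 without SD replicate 2. Beyond Ahcyl2 and Entpd3, the replicate block changed no call among the genes named. Adora1 made up 98.68% of receptor level on average, 98.58 to 98.73% with a library left out and 99.45% without division by length. Its log2 fold change stayed between 0.19 and 0.24, that of Nt5e between -0.56 and -0.35 and that of Slc29a4 between -0.49 and -0.10. That of Slc29a1 ran from -0.068 to -0.0072 and that of Slc29a2 from 0.043 to 0.17 with a library left out. Leaving out a library changed the sign for Adora2a (-0.32 to 0.33), Adora2b (-0.14 to 0.42), Adk (-0.13 to 0.26), Ada (-0.75 to 0.33) and Entpd1 (-0.25 to 0.10). The cause of these shifts was not tested. With 2 libraries per group, and 25 to 203 counts for Ada, Adora2a and Adora2b, the data do not settle whether these 3 genes changed within their intervals.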
